A study of Mus musculus with 12 samples.

Results

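The 9 transcripts described here are Neat1, Malat1, Dnm3os, Gas5, Snhg1, Snhg5, Snhg8, Snhg12 and Pvt1, long noncoding RNAs that stay in the nucleus or carry small RNAs inside their own genes. They were taken by name from the 24458 genes of the deposited expression table, and all 9 were among the 12198 genes whose mean normalized count reached 10 and which were tested. Neat1 and Dnm3os were chosen by their low values in the chrysin libraries, and all 9 were named with earlier results of these libraries known. The cells were mouse embryonic fibroblasts, which are cultured from the connective tissue of embryos, passaged no further than the 5th passage. They received apigenin at 50 µM for 24 h, chrysin at 50 µM for 24 h, or control medium (untreated), with 4 libraries in each group. Both compounds are plant flavones and differ by a hydroxyl group on the B ring, present in apigenin and missing from chrysin. The sources used here give neither the strain, nor the number of embryos, nor the solvent of the flavones, and nothing states that the 4 libraries of a group came from separate cultures. P-values therefore measure only the spread between these libraries, which may be technical.

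Neat1 is the RNA scaffold of paraspeckles, nuclear bodies that hold RNA-binding proteins such as Sfpq, Nono and Pspc1, while Malat1 gathers in nuclear speckles beside splicing factors. Gas5 and the Snhg genes are small nucleolar RNA (snoRNA) hosts: snoRNAs, which guide the chemical modification of ribosomal RNA, are cut from their introns, and the spliced remainder is often short-lived. Many such hosts begin with a tract of pyrimidines like that of ribosomal protein mRNAs, and several are degraded by nonsense-mediated decay. Dnm3os is a mesenchymal transcript that serves as the precursor of miR-199a and miR-214, and Pvt1 lies beside the Myc oncogene. The long form of Neat1 and the mature form of Malat1 end in a triple helix in place of a poly(A) tail, and the libraries here were made with a stranded mRNA kit, which selects poly(A) RNA. The table had a single row for Neat1, so its short and long forms could not be told apart.

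Neat1 lay at chr19:5824708-5845478 on the minus strand of mm9 and Malat1 at chr19:5795690-5802671 on the same strand, with 22.037 kb between them. Dnm3os lay at chr1:164147754-164155681 on the plus strand, inside and opposite to Dnm3, and the annotation placed the miRNA genes Mir199a-2 and Mir214 within it. Gas5 (chr1:162964553-162968670, plus strand) held 9 annotated snoRNA genes on its own strand, Snhg1 (chr19:8797986-8800932, plus strand) held 8, Snhg12 (chr4:131864593-131866939, plus strand) held 4 and Snhg5 (chr9:88415894-88417721, minus strand) held 2. Pvt1 (chr15:61869542-62209651, plus strand) spanned 340.1 kb. Snhg8 was not matched by name in the mm9 annotation used, so it has no location or level per kilobase here. The miRNAs carried by Dnm3os are shown because they are its best known products, as mature sequences from RefSeq (GRCm38.p6), 5′ to 3′, with the seed, bases 2 to 8, in capitals. No 2 of these 4 arms share a seed.
mmu-miR-199a-5p: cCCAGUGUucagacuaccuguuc
mmu-miR-199a-3p: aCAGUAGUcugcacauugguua
mmu-miR-214-5p: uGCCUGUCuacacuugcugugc
mmu-miR-214-3p: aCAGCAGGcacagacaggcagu
The rows for Mir199a-2 and Mir214 were at 0 reads in all 12 libraries. Of 1158 deposited rows named Mir, 7 had a mean of at least 10, and of 115 snoRNA rows 5 did. What follows is thus about the host transcripts and not about the small RNAs.

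The starts of the host transcripts were read because a C followed by pyrimidines at the first base is the hallmark of TOP (terminal oligopyrimidine) transcripts. RefSeq (GRCm38.p6) promoter entries were matched for 7 of the 9 genes, all but Neat1 and Pvt1. Each stretch below runs 5′ to 3′ on the strand of the gene, from 25 bases before the annotated start to 30 bases from it. Capitals mark a C followed by at least 4 pyrimidines within 10 bases of the start. Where several bases matched, the C nearest the start was taken. Pyrimidines just before that C stayed in lower case, so the capitals need not show where a tract begins.
Gas5, second promoter: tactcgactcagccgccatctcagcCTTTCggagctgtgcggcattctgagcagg
Snhg8: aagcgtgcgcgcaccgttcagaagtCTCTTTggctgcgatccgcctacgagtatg
Snhg12: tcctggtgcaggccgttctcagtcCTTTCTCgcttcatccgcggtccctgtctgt
Snhg5: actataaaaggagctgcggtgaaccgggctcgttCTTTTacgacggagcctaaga
Snhg1: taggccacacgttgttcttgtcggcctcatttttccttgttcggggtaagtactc
Dnm3os: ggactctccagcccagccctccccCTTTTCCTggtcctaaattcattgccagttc
In the second Gas5 promoter and in Snhg8 such a C stood exactly at the annotated start, as it did in 2.51% of the 32851 promoters in the table. In Snhg12 and Dnm3os the marked C lay 1 base before the start, with more pyrimidines directly before it, and in Snhg5 it lay at base 10. A match within 10 bases of the start was found in 30.7% of all promoters. Snhg1, the first Gas5 promoter and Malat1 had none in that window by this reading. Among motifs searched on both strands over 300 bases, Gas5 held the CRE (TGACGTCA, in 1.79% of all promoters) and Snhg8 held the antioxidant response element (TGACNNNGC, in 12.4%) at 2 places. The TATA motif (TATAAA, 13.6%) was found in Snhg1, Snhg5 and Snhg8, and CCAAT (37.4%) in Snhg5 and Snhg8. None of the 7 genes held an E-box (CACGTG, 7.15%), an amino acid response element (TGATGNAAN, 3.95%) or an AP-1 motif (TGANTCA, 7.81%) there. A match of letters is a description and does not show binding.

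Levels are given as log2 of the normalized read count plus 1. Read totals recovered from the table ran from 4298640 to 15512632 per library, and the fewest reads of any of the 9 transcripts in a library was 49. None was near the detection limit, since 3 reads, the upper limit for a count of 0 (counting error only), came to a log2 level of at most 2.86 and the lowest level among the 9 was 6.04. All 15 fibroblast markers passed the filter on low values and none of the 6 epithelial or 3 erythroid markers did. Summed marker levels differed between groups. The log2 of the sum was 17.48 to 17.59 in apigenin, 17.68 to 18.03 in chrysin and 18.03 to 18.11 in untreated libraries for the 15 fibroblast markers. For the 6 leukocyte markers measured (4 passed the filter) it was 10.51 to 10.85 in apigenin, 9.73 to 9.91 in chrysin and 9.93 to 10.1 in untreated libraries, and for the 6 muscle markers (4 passed) 9.35 to 9.81 in apigenin, 10.95 to 11.26 in chrysin and 10.49 to 10.61 in untreated libraries. The 5 neural markers (3 passed) stood at 4.798 to 5.79 in apigenin, 5.30 to 5.73 in chrysin and 7.35 to 8.27 in untreated libraries, and the 5 endothelial markers (2 passed) at 4.11 to 4.64 in apigenin, 4.84 to 5.98 in chrysin and 6.23 to 6.595 in untreated libraries. The 4 adipocyte markers (2 passed) stood at 6.93 to 7.34 in apigenin, 8.52 to 8.95 in chrysin and 7.59 to 8.39 in untreated libraries, and the 4 pluripotency markers (1 passed, Sox2) at 4.41 to 6.97 in apigenin, 3.51 to 4.398 in chrysin and 4.31 to 5.196 in untreated libraries. The part of these shifts in the results was not tested. In bulk RNA, fewer cells of a type and less RNA per cell cannot be told apart. The apigenin libraries were divided: on the first principal component, which held 43.8% of the variance, replicates 2 and 4 lay at 38.72 and 42.29, replicates 1 and 3 at -4.78 and -7.16, chrysin libraries at 35.22 to 43.17 and untreated libraries at -61.0 to -55.2. Some results on apigenin are therefore also given with a pair of apigenin libraries alone. The values of these same libraries set the pairs, so p-values and counts of calls from a pair alone are a description and carry no test.

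**Figure D1:**
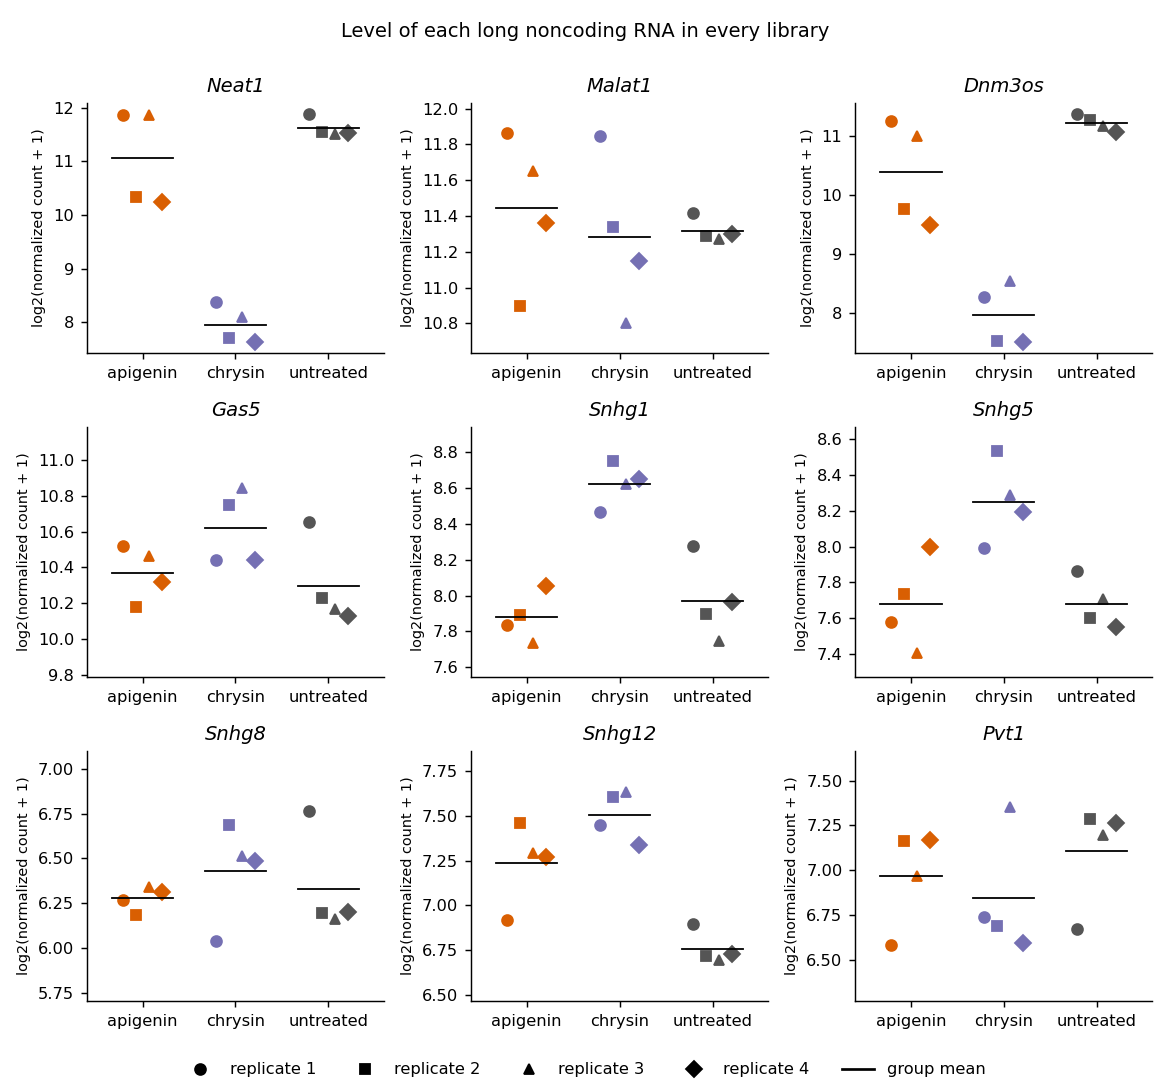
Level of each of the 9 transcripts, as log2 of the normalized count plus 1, in every library of the apigenin, chrysin and untreated groups (4 libraries each, marker shape for the replicate number, line for the group mean; each panel has its own axis). Neat1 and Dnm3os were low in all chrysin libraries and divided among the apigenin libraries, while Snhg1 and Snhg5 were highest in chrysin.

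Neat1 was 12.6-fold lower in chrysin-treated than in untreated fibroblasts. Neat1 stood at log2 levels of 11.85, 10.33, 11.85 and 10.24 in apigenin replicates 1 to 4, at 8.38, 7.71, 8.10 and 7.63 in chrysin libraries, and at 11.87, 11.55, 11.50 and 11.52 in untreated libraries. Every chrysin library lay below every apigenin and untreated library. The log2 difference was -3.66 ± 0.38 for chrysin against untreated (SE, n = 4 each, 95% confidence interval -4.49 to -2.83), the 30th lowest difference among the 12198 genes tested. Since these values chose Neat1 and Dnm3os, they are a description and carry no test. In reads, the lowest chrysin library held 100 from Neat1 and the lowest untreated library 2197.

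The apigenin libraries were split for Neat1. Replicates 1 and 3 lay at or above most untreated libraries, whereas replicates 2 and 4 lay below all of them. For apigenin against untreated the log2 difference was -0.54 ± 0.38 (SE, 95% interval -1.38 to 0.29), which did not pass the test (limma with Benjamini-Hochberg adjustment over 12198 genes, adjusted p = 0.262). With apigenin replicates 2 and 4 alone it was -1.33, and with replicates 1 and 3 alone 0.24. These are described without a test, since the values of these libraries set the pairs. The SD of Neat1 over the 4 apigenin libraries, 0.907, was at or above that of 95.2% of genes tested, and the median SD of all genes was 0.242 in apigenin, 0.219 in chrysin and 0.151 in untreated libraries.

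Malat1, the neighbour of Neat1, passed no test. Its log2 levels were 11.86, 10.90, 11.65 and 11.36 in apigenin libraries, 11.85, 11.34, 10.80 and 11.15 in chrysin libraries, and 11.42, 11.29, 11.27 and 11.30 in untreated libraries. Both treated groups spread to either side of the narrow untreated range. Log2 differences were 0.13 ± 0.22 for apigenin (SE, 95% interval -0.35 to 0.60, limma adjusted p = 0.662) and -0.03 ± 0.22 for chrysin (-0.51 to 0.44, adjusted p = 0.908), each against untreated. Both intervals allow modest changes of either sign. The log2 ratio of Neat1 to Malat1 within a library was -0.01, -0.57, 0.20 and -1.12 in apigenin, -3.47, -3.64, -2.71 and -3.52 in chrysin, and 0.46, 0.26, 0.23 and 0.22 in untreated libraries.

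**Figure D2:**
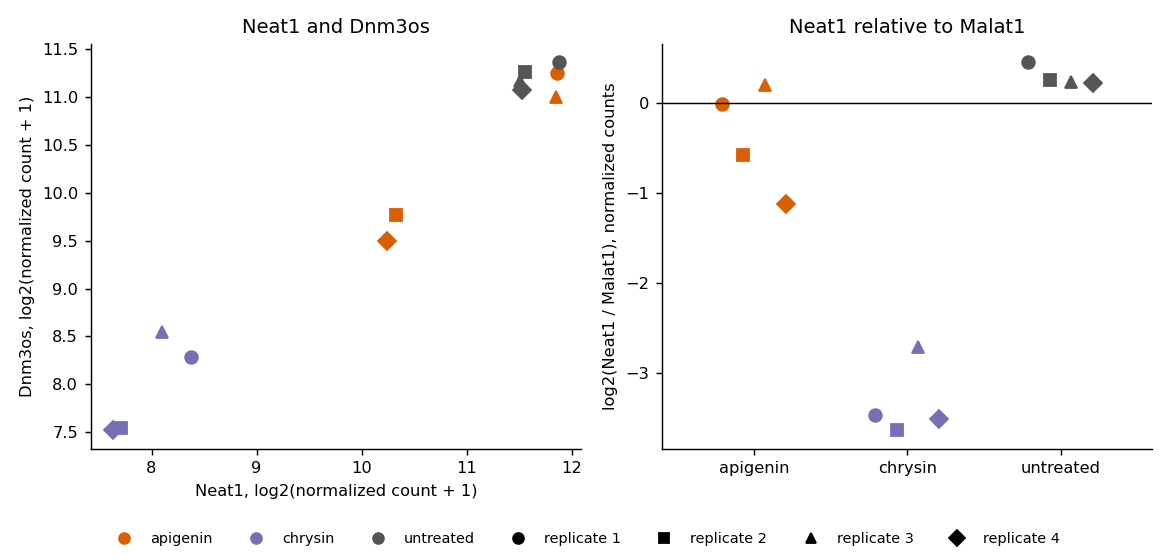
Left, Dnm3os against Neat1 in the 12 libraries, both as log2 of the normalized count plus 1; right, the log2 ratio of Neat1 to Malat1 normalized counts in each library (colour for group, shape for replicate number). Apigenin replicates 2 and 4 lay between the chrysin and the untreated libraries in the left plot, and chrysin ratios were -3.64 to -2.71.

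Dnm3os, on another chromosome, was chosen like Neat1 by its low chrysin values and was divided among the apigenin libraries in the same way. Its log2 levels were 11.25, 9.77, 11.00 and 9.50 in apigenin libraries, 8.29, 7.54, 8.55 and 7.52 in chrysin libraries, and 11.36, 11.26, 11.17 and 11.07 in untreated libraries. All chrysin libraries lay below all others, and apigenin replicates 2 and 4 lay between. Described without a test, the log2 difference for chrysin against untreated was -3.24 ± 0.39 (SE, 95% interval -4.11 to -2.38), 9.47-fold lower and the 57th lowest of all genes tested. Against untreated, apigenin gave -0.84 ± 0.39 (95% interval -1.70 to 0.03, limma adjusted p = 0.103). Replicates 2 and 4 alone gave -1.58 and replicates 1 and 3 alone -0.09, again without a test. With only apigenin replicate 1 left out, the apigenin difference passed the test at -1.13 (limma, adjusted p = 0.0276).

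Across the 12 libraries the levels of Neat1 and Dnm3os had a Pearson correlation of 0.987, and of 0.945 after each group's mean was removed. Both genes were chosen by their low chrysin values, so the first of these supports nothing, and the points share the normalization and the division of the apigenin libraries. The values are a description. Neat1 and Malat1 had 0.307 and 0.665 by the same measures. The genes most like Neat1 over the 12 libraries were Emilin1, an extracellular matrix glycoprotein, and Zfp322a, a zinc finger protein, both at a correlation of 0.992. Those most like Dnm3os were Gas1, a growth arrest gene of the cell surface, at 0.990, and Nrbp2 at 0.986. Gas1 log2 levels ran from 9.38 to 10.5 in apigenin, 7.47 to 8.47 in chrysin and 10.9 to 11.2 in untreated libraries.

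Snhg1 and Snhg5 rose in chrysin and did not pass the test in apigenin. Snhg1 had log2 levels of 7.84, 7.89, 7.73 and 8.05 in apigenin libraries, 8.47, 8.75, 8.63 and 8.65 in chrysin libraries, and 8.28, 7.89, 7.74 and 7.96 in untreated libraries. The chrysin libraries lay above all others. The log2 difference for chrysin against untreated was 0.66 ± 0.13 (SE, 95% interval 0.38 to 0.93, limma adjusted p = 0.000506), a 1.58-fold rise, and that for apigenin was -0.09 ± 0.13 (-0.37 to 0.19, adjusted p = 0.590).

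Snhg5 log2 levels were 7.58, 7.73, 7.40 and 8.00 in apigenin libraries, 7.99, 8.54, 8.29 and 8.19 in chrysin libraries, and 7.87, 7.60, 7.71 and 7.55 in untreated libraries. Chrysin did not overlap with untreated but overlapped with the highest apigenin library. Its log2 difference was 0.57 ± 0.15 for chrysin against untreated (SE, 95% interval 0.25 to 0.89, limma adjusted p = 0.00466), 1.48-fold. For apigenin against untreated it was -0.003 ± 0.15 (95% interval -0.32 to 0.32, limma adjusted p = 0.989).

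Snhg12 was the only one of the 9 to pass the test with both flavones. Its log2 levels were 6.92, 7.46, 7.29 and 7.27 in apigenin libraries, 7.45, 7.60, 7.64 and 7.34 in chrysin libraries, and 6.89, 6.72, 6.69 and 6.73 in untreated libraries. No treated library overlapped with the untreated ones, but apigenin replicate 1, at 104 reads, stood only just above the highest untreated library, at 69 reads and a level of 6.89. The log2 difference was 0.48 ± 0.15 for apigenin (SE, 95% interval 0.15 to 0.80, limma adjusted p = 0.0176) and 0.75 ± 0.15 for chrysin (0.42 to 1.07, adjusted p = 0.000616), each against untreated. The apigenin call was lost without apigenin replicate 2, at 0.40 (limma, adjusted p = 0.0692). With apigenin replicates 1 and 3 alone the difference was 0.35, described without a test.

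Gas5 held the most snoRNA genes of the hosts here. Log2 levels were 10.52, 10.18, 10.47 and 10.32 in apigenin libraries, 10.44, 10.75, 10.84 and 10.44 in chrysin libraries, and 10.65, 10.23, 10.17 and 10.13 in untreated libraries. Untreated replicate 1 lay above 2 chrysin libraries, so the groups overlapped. Chrysin against untreated gave 0.32 ± 0.13 (SE, 95% interval 0.06 to 0.59), which passed the test narrowly (limma, adjusted p = 0.0376). The call was lost under quantile normalization, at 0.16 (limma, adjusted p = 0.279), and without chrysin replicate 2 or 3 (0.28 and 0.25) or untreated replicate 2, 3 or 4 (0.30, 0.28 and 0.27). The same call was lost with no filter on low values (limma, adjusted p = 0.0578) and without trend and robust variances (adjusted p = 0.0816). Apigenin against untreated gave 0.08 ± 0.13 (95% interval -0.19 to 0.34, limma adjusted p = 0.642).

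Snhg8 and Pvt1 were not called in either flavone. Snhg8 log2 levels were 6.27, 6.18, 6.34 and 6.31 in apigenin libraries, 6.04, 6.69, 6.52 and 6.49 in chrysin libraries, and 6.76, 6.20, 6.16 and 6.20 in untreated libraries. The untreated group held both the highest library and 1 of the lowest. Differences were -0.05 ± 0.20 for apigenin (SE, 95% interval -0.48 to 0.37, limma adjusted p = 0.844) and 0.10 ± 0.20 for chrysin (-0.33 to 0.53, adjusted p = 0.695). Pvt1 log2 levels were 6.58, 7.16, 6.97 and 7.17 in apigenin libraries, 6.74, 6.69, 7.35 and 6.59 in chrysin libraries, and 6.67, 7.29, 7.19 and 7.27 in untreated libraries. In chrysin 3 libraries were low and 1 was the highest of all 12. Differences were -0.14 ± 0.21 for apigenin (95% interval -0.57 to 0.30, limma adjusted p = 0.615) and -0.26 ± 0.21 for chrysin (-0.70 to 0.17, adjusted p = 0.301; with array weights it was called at -0.41, adjusted p = 0.0434), so the intervals exclude neither a rise nor a fall of modest size.

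Counted over all 9, apigenin against untreated called 1 higher (Snhg12) and 0 lower, where 46.2% of all genes tested were called, 23.0% higher and 23.2% lower. Chrysin against untreated called 4 higher (Gas5, Snhg1, Snhg5 and Snhg12), where 26.3% of all genes were called higher and 53.0% in either direction; nothing is read from the low values of Neat1 and Dnm3os, which chose them (26.7% of genes were called lower). The median log2 difference of the 9 was -0.05 for apigenin, beside 0.01 over all genes tested. For chrysin it was 0.10, beside -0.03 over all genes. Nothing is read from this chrysin median, since it includes Neat1 and Dnm3os, which were chosen by their low chrysin values. Both comparisons use the same 4 untreated libraries. Between apigenin and untreated the groups did not overlap for 1 of the 9, higher in apigenin, as for 45.1% of all genes (22.2% higher and 22.8% lower). Between chrysin and untreated they did not overlap for 3 of the other 7, all higher in chrysin; over all genes this share was 51.4% (25.7% in each direction). Neat1 and Dnm3os are left out of this count because their chrysin values chose them.

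**Figure D3:**
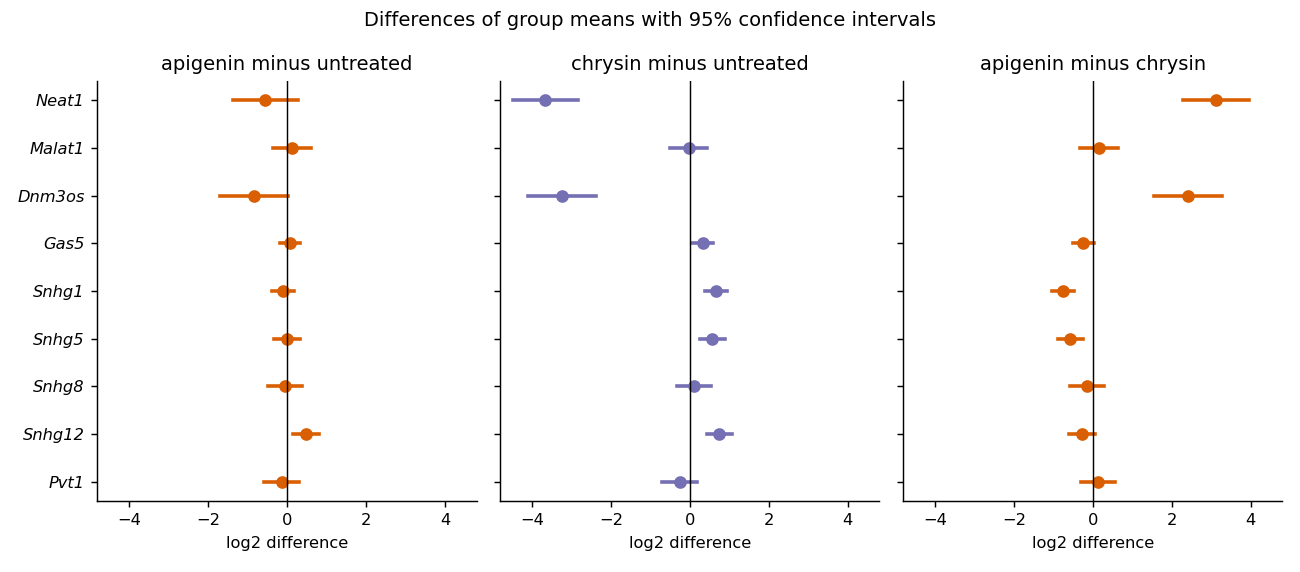
Log2 differences of group means with 95% confidence intervals for the 9 transcripts in apigenin minus untreated, chrysin minus untreated and apigenin minus chrysin (4 libraries in each group). Neat1 and Dnm3os lay far below 0 for chrysin minus untreated, at -3.66 and -3.24, and Malat1 lay near 0 in all panels.

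The flavones were also set against each other, at the same dose and time, as a single pair of compounds. Snhg1 was lower in apigenin than in chrysin by a log2 difference of -0.75 ± 0.13 (SE, 95% interval -1.02 to -0.47, limma adjusted p = 0.000176), with no overlap between the groups. Snhg5 was lower in apigenin by -0.57 ± 0.15 (-0.89 to -0.25, limma adjusted p = 0.00479). With apigenin replicates 2 and 4 alone the Snhg5 difference was -0.39, described without a test. Snhg1 and Snhg5 stood among the 9, where 50.7% of all genes tested were called in this comparison, 24.7% higher and 26.1% lower. Over all genes 41.0% did not overlap (19.5% higher and 21.5% lower). Described without a test, Neat1 was higher in apigenin by 3.11 ± 0.38 (95% interval 2.28 to 3.95) and Dnm3os by 2.41 ± 0.39 (1.54 to 3.27).

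The other 5 did not pass the test between the flavones. The intervals of apigenin minus chrysin were -0.31 to 0.63 for Malat1 (limma adjusted p = 0.567), -0.51 to 0.02 for Gas5 (0.108), -0.58 to 0.27 for Snhg8 (0.544), -0.60 to 0.05 for Snhg12 (0.150) and -0.31 to 0.56 for Pvt1 (0.632). For Snhg12, which rose with both flavones, the difference was -0.27 ± 0.15 (SE), and under quantile normalization it passed the test at -0.38 (limma, adjusted p = 0.0447). With apigenin replicates 2 and 4 alone Gas5 had -0.37, described without a test since the values of these libraries set the pair. A p above the threshold does not show that the flavones acted alike on these transcripts.

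To compare the transcripts with each other, normalized counts were divided by the summed length of annotated exons in kb. In apigenin libraries the order was Malat1 at 411 ± 112, Gas5 at 353 ± 37.0, Snhg5 at 208 ± 37.1, Dnm3os at 192 ± 107, Neat1 at 119 ± 68.2, Snhg12 at 92.8 ± 14.0, Snhg1 at 79.7 ± 7.50 and Pvt1 at 22.5 ± 4.03 normalized counts per kb (SD, n = 4). In chrysin libraries Gas5 led at 421 ± 60.6, before Malat1 at 370 ± 116, Snhg5 at 309 ± 49.0, Snhg1 at 134 ± 11.0, Snhg12 at 112 ± 10.7, Dnm3os at 33.1 ± 11.9, Pvt1 at 20.8 ± 5.55 and Neat1 at 12.2 ± 3.01. In untreated libraries the order was Malat1 at 366 ± 17.2, Gas5 at 337 ± 60.8, Dnm3os at 301 ± 26.1, Snhg5 at 206.5 ± 20.5, Neat1 at 152 ± 19.5, Snhg1 at 85.5 ± 13.9, Snhg12 at 66.1 ± 4.36 and Pvt1 at 24.8 ± 4.56. The place of Neat1 rests on dividing by all 20.77 kb of its long form, though its forms could not be told apart and the kit selects poly(A) RNA, so its level per kb is uncertain. The mature form of Malat1 also lacks a poly(A) tail, so the level and place of Malat1 are uncertain too.

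Neighbours in that order often did not differ beyond their spread. In untreated libraries the ranges of Malat1 and Gas5, of Gas5 and Dnm3os, and of Snhg1 and Snhg12 overlapped, while Dnm3os and Snhg5, Snhg5 and Neat1, Neat1 and Snhg1, and Snhg12 and Pvt1 were separate. When the longest annotated transcript was used in place of all exons, Gas5 came to 520 in apigenin, 619.5 in chrysin and 496 in untreated libraries, above Malat1 in all 3 groups. Snhg12 likewise came to 162 in apigenin, 194.5 in chrysin and 115 in untreated libraries. That put Snhg12 above Neat1 in apigenin and above Snhg1 in chrysin (145) and untreated libraries (92.7). In chrysin Pvt1 came to 35.1, above Dnm3os at 33.1. The level of a gene with many short transcripts therefore depends on the length chosen.

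The host transcripts went together across libraries to differing degrees, again as a description over 12 libraries. Snhg1 and Snhg5 had a correlation of 0.920, and 0.743 after group means were removed, while Snhg1 and Snhg12 had 0.649 and 0.377. The genes most like Snhg1 were Tsr1 and Ebna1bp2, both factors of ribosome assembly, at 0.971. Those most like Snhg5 were Surf6, a nucleolar protein, and Set, a histone chaperone, at 0.957. Gas5 was most like Rpl32, a ribosomal protein, and Slc4a1ap at 0.935, and Snhg12 was most like Lsm8, an Sm-like protein, at 0.962 and Pus7, a pseudouridine synthase, at 0.957. For Malat1 the highest values were lower, 0.850 with Olr1 and 0.822 with Pcnt, as they were for Snhg8 (Ndufb6 at 0.849, Tusc3 at 0.837) and Pvt1 (Pcdhga6 at 0.868, Adgrg1 at 0.866).

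Frmd8, 4.224 kb from Neat1 on the same strand, rose with both flavones, by 1.19 ± 0.10 in apigenin (SE, limma adjusted p = 9.5e-08) and 0.45 ± 0.10 in chrysin (adjusted p = 0.00143), each against untreated on the log2 scale. Its log2 levels were 9.37 to 9.56 in apigenin, 8.53 to 8.87 in chrysin and 8.19 to 8.30 in untreated libraries. Neat1, next to it, was far lower in chrysin.

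Dnm3, the dynamin gene that Dnm3os overlaps on the opposite strand, fell more in apigenin, the reverse of the order seen for Dnm3os. Dnm3 log2 levels were 4.90 to 5.52 in apigenin, 6.93 to 7.07 in chrysin and 7.63 to 7.77 in untreated libraries. Its log2 differences were -2.43 ± 0.17 for apigenin (SE, limma adjusted p = 9.1e-09) and -0.72 ± 0.17 for chrysin (adjusted p = 0.00206) against untreated, and -1.71 ± 0.17 for apigenin against chrysin (adjusted p = 4.9e-07). No source used here gives the strand setting of the counting, so reads of overlapping genes on opposite strands cannot be told apart with certainty. Pigc, a gene of GPI anchor synthesis 190.517 kb away, was lower with both, at -0.94 ± 0.16 in apigenin (SE, limma adjusted p = 0.000185) and -1.51 ± 0.16 in chrysin (adjusted p = 1.2e-06).

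Slc3a2, the heavy chain of amino acid transporters, starts 0.127 kb from Snhg1 on the opposite strand and rose with both flavones. Its log2 difference was 1.35 ± 0.10 in apigenin (SE, limma adjusted p = 1.2e-08) and 1.498 ± 0.10 in chrysin (adjusted p = 4.4e-09), whereas Snhg1 rose in chrysin and had -0.09 ± 0.13 in apigenin. Zbtb37, a zinc finger gene that overlaps Gas5 on the opposite strand, rose by 1.66 ± 0.33 in apigenin (SE, limma adjusted p = 0.000610) and by 1.35 ± 0.33 in chrysin (adjusted p = 0.00255). Syncrip, an RNA-binding protein gene 38.482 kb from Snhg5, rose by 0.41 ± 0.09 in chrysin (SE, limma adjusted p = 0.000836) and had -0.08 ± 0.09 in apigenin (adjusted p = 0.492). Trnau1ap, 0.739 kb from Snhg12, passed the test with neither (0.36 ± 0.17, limma adjusted p = 0.0868 in apigenin and 0.03 ± 0.17, adjusted p = 0.893 in chrysin).

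Myc, 47.613 kb from Pvt1, fell where Pvt1 did not pass the test. Myc log2 levels were 8.22 to 8.60 in apigenin, 7.05 to 7.54 in chrysin and 8.64 to 8.93 in untreated libraries. The log2 difference was -1.37 ± 0.14 for chrysin against untreated (SE, limma adjusted p = 6.0e-07) and 1.01 ± 0.14 for apigenin against chrysin (adjusted p = 1.6e-05). For apigenin against untreated it was -0.36 ± 0.14 (limma, adjusted p = 0.0402). This call was lost without apigenin replicate 2 or 4 or untreated replicate 2, 3 or 4 (limma adjusted p of 0.0535 to 0.125). With apigenin replicates 1 and 3 alone the difference was -0.20, described without a test.

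**Figure D4:**
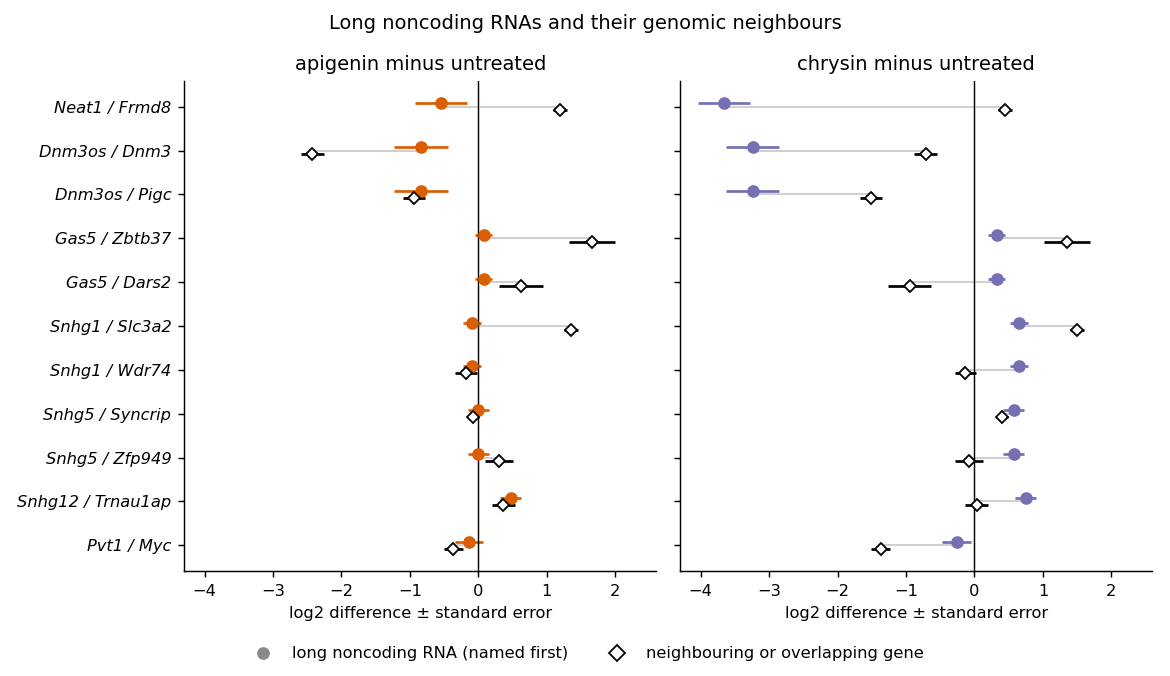
Log2 difference ± SE of 7 of the long noncoding RNAs (filled circle, named first) and of a neighbouring or overlapping protein-coding gene (open diamond), for apigenin minus untreated and chrysin minus untreated (4 libraries in each group). Frmd8 and Slc3a2 lay above 0 in both panels, and Dnm3 lay at -2.43 in apigenin and -0.72 in chrysin.

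Other long noncoding RNAs were mostly lower where they passed the test. Of 53 listed, 28 were tested, and 1 rose and 11 fell in apigenin, while 1 rose and 15 fell in chrysin, each against untreated. The share called, 42.9% in apigenin and 57.1% in chrysin, was near that of all genes, 46.2% and 53.0%, and the direction was uneven, where all genes were 23.0% higher and 23.2% lower in apigenin and 26.3% higher and 26.7% lower in chrysin. Their median log2 difference was -0.39 for apigenin and -0.80 for chrysin, beside 0.01 and -0.03 over all genes tested. With apigenin replicates 2 and 4 alone 15 were called, and with replicates 1 and 3 alone 8. Under quantile normalization the chrysin split was 3 higher and 14 lower. Mirg and Rian are imprinted transcripts of the Meg3 cluster. Mirg fell by 1.11 ± 0.22 in apigenin (SE, limma adjusted p = 0.000645) and by 2.61 ± 0.22 in chrysin (adjusted p = 9.7e-08), while Rian fell by 0.34 ± 0.07 in apigenin (adjusted p = 0.00126) and had -0.04 ± 0.07 in chrysin (adjusted p = 0.70).

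H19, an imprinted growth-related RNA, fell by 1.26 ± 0.32 in apigenin (SE, limma adjusted p = 0.00813) and by 1.21 ± 0.32 in chrysin (adjusted p = 0.00859), at log2 levels of 11.69 to 13.12 in apigenin, 12.31 to 12.60 in chrysin and 13.50 to 14.10 in untreated libraries. Over the alternatives run, its apigenin difference ran from -1.94 to -0.59 and kept its call. Tug1 fell by 1.04 ± 0.22 in apigenin (SE, limma adjusted p = 0.00150) and by 0.84 ± 0.22 in chrysin (adjusted p = 0.00499). Firre, a nuclear RNA of the X chromosome that organizes chromatin, fell by 1.72 ± 0.21 in chrysin (SE, limma adjusted p = 5.7e-06) and had 0.18 ± 0.21 in apigenin (adjusted p = 0.523). Snhg6, another snoRNA host, was the one that rose in both, by 0.83 ± 0.26 in apigenin (SE, limma adjusted p = 0.0139) and 1.35 ± 0.26 in chrysin (adjusted p = 0.000305). The apigenin call of Snhg6 was lost without untreated replicate 2 (0.66, limma adjusted p = 0.0550). With apigenin replicates 1 and 3 alone Snhg6 had 0.51, described without a test. Other Snhg genes went the other way. Snhg11 had -0.75 ± 0.25 in apigenin (SE, limma adjusted p = 0.0199) and -1.21 ± 0.25 in chrysin (adjusted p = 0.000632). Its apigenin call was lost without apigenin replicate 2 or 4 or untreated replicate 2 or 3 (limma adjusted p of 0.0566 to 0.0849). With apigenin replicates 1 and 3 alone Snhg11 had -0.41, described without a test. Snhg18 had -0.66 ± 0.16 (limma, adjusted p = 0.00235) and -0.69 ± 0.16 (adjusted p = 0.00144). Snhg3, Snhg4, Snhg7, Snhg14, Snhg15, Snhg17 and Snhg20 passed the test with neither.

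Paraspeckle proteins, the partners of Neat1, mostly fell in apigenin where they passed the test. Of 30 tested, 3 rose and 14 fell in apigenin, and 8 rose and 4 fell in chrysin, with median log2 differences of -0.39 and -0.01. That is 56.7% of the list called in apigenin and 40% in chrysin, beside 46.2% and 53.0% of all genes. Under quantile normalization the chrysin split turned to 5 higher and 7 lower. Pspc1, a core paraspeckle protein, had log2 levels of 5.61 to 6.47 in apigenin, 8.07 to 8.62 in chrysin and 7.99 to 8.44 in untreated libraries. It fell by 2.08 ± 0.20 in apigenin (SE, limma adjusted p = 3.3e-07), and in chrysin, where Neat1 was lowest, its difference was 0.11 ± 0.20 (adjusted p = 0.674). Dazap1, an RNA-binding protein of these bodies, rose in both, by 0.71 ± 0.11 in apigenin (SE, limma adjusted p = 5.7e-05) and 0.56 ± 0.11 in chrysin (adjusted p = 0.000454). Fam98a fell in apigenin by 0.80 ± 0.11 (SE, limma adjusted p = 1.1e-05), as did Hnrnph1 by 0.83 ± 0.11 (adjusted p = 1.7e-05).

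Nuclear speckle proteins, the partners of Malat1, fell in apigenin in 15 of 22 cases and rose in none, and in chrysin 3 rose and 7 fell, with median log2 differences of -0.41 and -0.07. That is 68.2% of the list called in apigenin and 45.5% in chrysin, beside 46.2% and 53.0% of all genes. The splicing factors Srsf3 and Srsf7 fell in apigenin, by 0.85 ± 0.12 (SE, limma adjusted p = 2.9e-05) and 1.00 ± 0.15 (adjusted p = 5.5e-05), and Srsf6 fell by 0.86 ± 0.13 (adjusted p = 4.3e-05). In chrysin Srsf6 fell by 0.53 ± 0.13 (SE, limma adjusted p = 0.00258) while Rnps1, a splicing and exon junction factor, rose by 0.69 ± 0.10 (adjusted p = 3.3e-05). Malat1 passed the test with neither flavone.

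Factors that act on the host transcripts were described in the same way. Of 19 snoRNP proteins and assembly factors, 3 rose and 5 fell in apigenin, and 8 rose and 1 fell in chrysin (medians -0.05 and 0.22). The share called, 42.1% in apigenin and 47.4% in chrysin, was near or below the 46.2% and 53.0% of all genes. Without apigenin replicate 2, or without untreated replicate 2, 1 rose and 4 fell in apigenin. Nolc1, a chaperone of snoRNPs, rose by 1.07 ± 0.12 in chrysin (SE, limma adjusted p = 2.5e-06) and had -0.26 ± 0.12 in apigenin (adjusted p = 0.10). Nop58, a core protein of box C/D snoRNPs, rose by 0.72 ± 0.10 in chrysin (SE, limma adjusted p = 1.9e-05) and fell by 0.49 ± 0.10 in apigenin (adjusted p = 0.000906). Nufip1 and Naf1, both assembly factors, rose in chrysin by 1.24 ± 0.17 (SE, limma adjusted p = 9.96e-06) and 0.79 ± 0.13 (adjusted p = 7.85e-05).

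Of 20 nonsense-mediated decay factors, 3 rose and 4 fell in apigenin, and 7 rose and 0 fell in chrysin (medians 0.07 and 0.20). The share called was 35% with each flavone, below the 46.2% of all genes in apigenin and 53.0% in chrysin. Under quantile normalization the splits were 5 higher and 4 lower in apigenin and 8 higher and 1 lower in chrysin, and with apigenin replicates 2 and 4 alone 12 were called against 4 with replicates 1 and 3 alone. Etf1, the translation release factor, rose by 1.19 ± 0.09 in chrysin (SE, limma adjusted p = 2.0e-08) and had 0.09 ± 0.09 in apigenin (adjusted p = 0.404). The kinase gene Smg1 rose in both, by 0.61 ± 0.13 in apigenin (SE, limma adjusted p = 0.000841) and 1.06 ± 0.13 in chrysin (adjusted p = 3.1e-06). Upf2 and Casc3 rose in chrysin by 0.91 ± 0.12 (SE, limma adjusted p = 7.7e-06) and 0.67 ± 0.09 (adjusted p = 1.5e-05).

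The list named TOP mRNAs outside the ribosome gave few calls in apigenin. The starts of these mRNAs were not read here, so a start shared with the hosts is not shown. Despite its name the list holds Fau and Gnb2l1, genes of ribosome components. Of 18 tested, 0 rose and 3 fell in apigenin and 6 rose and 0 fell in chrysin, with medians of -0.02 and 0.16, beside 23.2% of all genes lower in apigenin and 26.3% higher in chrysin. Fau was among the 6 that rose in chrysin. The direction in apigenin depended on the scaling, since under quantile normalization 7 rose and 1 fell, and in chrysin 4 rose and 1 fell. Without apigenin replicate 1, 5 fell in apigenin. Vim, the fibroblast filament protein vimentin, had the smallest p of the list and fell by 0.65 ± 0.07 in apigenin (SE, limma adjusted p = 5.7e-07), but had 0.23 under quantile normalization (adjusted p = 0.121), and it had 0.003 ± 0.07 in chrysin (adjusted p = 0.977). Npm1, the nucleolar protein nucleophosmin, rose by 0.70 ± 0.13 in chrysin (SE, limma adjusted p = 0.000359) and had -0.32 ± 0.13 in apigenin (adjusted p = 0.0554). Eif3e, an initiation factor subunit, fell by 0.52 ± 0.10 in apigenin (SE, limma adjusted p = 0.000542) and had 0.16 ± 0.10 in chrysin (adjusted p = 0.215).

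Between the flavones these lists split as follows for apigenin against chrysin, where 50.7% of all genes tested were called, 24.7% higher and 26.1% lower. The share called was 28.6% of the other long noncoding RNAs, 73.3% of the paraspeckle and 59.1% of the nuclear speckle proteins. It was 68.4% of the snoRNP proteins, 60% of the nonsense-mediated decay factors and 50% of the TOP mRNAs. Of the other long noncoding RNAs, 6 were higher and 2 lower (17 called with apigenin replicates 1 and 3 alone), with a median log2 difference of 0.51, beside 0.01 over all genes. Of the paraspeckle proteins 5 were higher and 17 lower, with Pspc1 lower by -2.18 ± 0.20 (SE, limma adjusted p = 1.8e-07), and of the nuclear speckle proteins 1 was higher and 12 lower, or 3 and 11 under quantile normalization. Of the snoRNP proteins 1 was higher and 12 lower, with Nolc1 at -1.32 ± 0.12 (SE, limma adjusted p = 2.6e-07). Of the nonsense-mediated decay factors 1 was higher and 11 lower, and of the TOP mRNAs 1 was higher and 8 lower, which turned to 7 and 4 under quantile normalization. The medians of these 5 protein lists ran from -0.48 to -0.17.

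**Figure D5:**
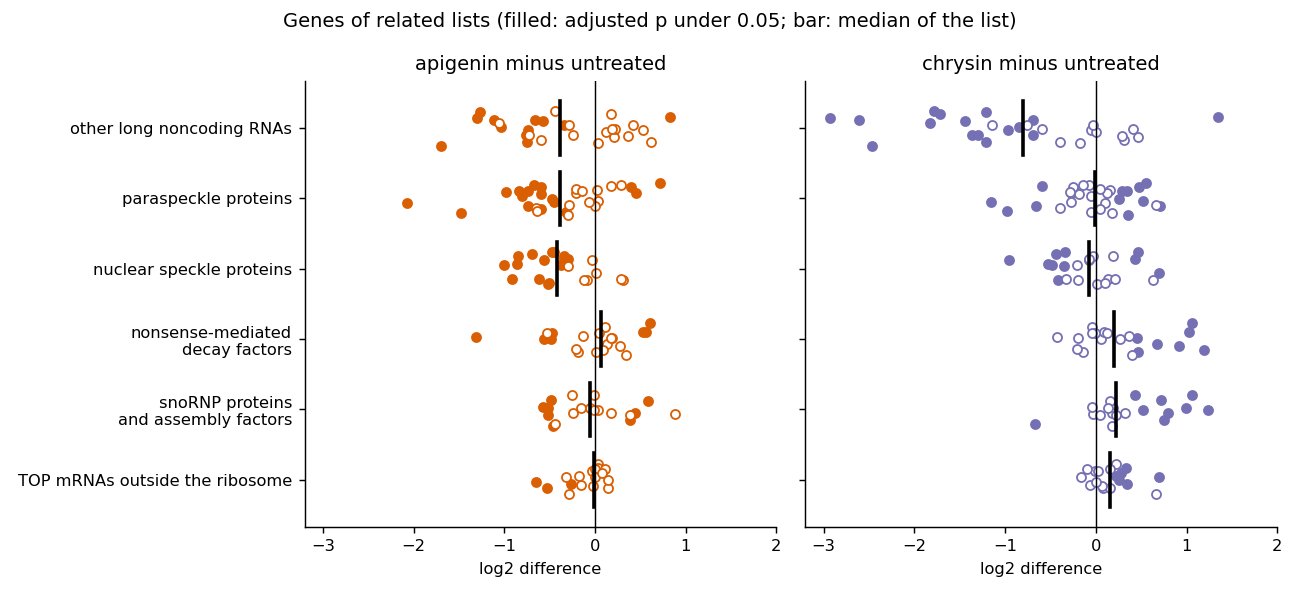
Log2 differences of the genes of 6 related lists for apigenin minus untreated and chrysin minus untreated (each point a gene, filled where the adjusted p from limma was under 0.05, bar for the median of the list). Other long noncoding RNAs had medians of -0.39 in apigenin and -0.80 in chrysin, while nuclear speckle proteins had -0.41 in apigenin and -0.07 in chrysin.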

How the data were processed

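RNA of mouse embryonic fibroblasts was sequenced in 12 libraries. The submitters' processing notes name STAR, HTSeq, DESeq2, cutadapt and FastQC and the build mm9, without versions or settings. The deposited values are log2 of a normalized count plus 1, per the labels and as the values show: undone, 99.97% to 100% of values under 500 reads lay within 0.05 of a whole read. Of the deposited gene names, 27 had become dates and were restored by gene ID.

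Groups came from sample titles. Genes averaging a normalized count of 10 or more were fitted with limma 3.58.1 (R 4.3.3; one mean per group over 12 libraries, trend and robust variances, two-sided, Benjamini-Hochberg over 12198 genes, called under an adjusted p of 0.05), a script first tested on simulated data. On this scale fold changes of low genes are understated. The members, lists and rules were chosen with earlier results of these data known. Named are all members, up to 4 genes of smallest p per list (any other long noncoding RNA), the 2 most correlated genes, skipping predicted genes, and neighbours (GENCODE vM1, mm9). A neighbouring gene is not reported here. Alternatives were scaling, filter, pseudocount, variance model, array weights, limma-voom on recovered reads, a replicate block, fewer samples and leaving out each library.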

Additional observations from a re-analysis of the deposited data

Results flagged for a closer look

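In 3 of the 27 sets of 4 libraries examined (9 transcripts in 3 groups), 1 library stood far from the other 3, where chance alone flags about 1 in 20 such sets. All were untreated replicate 1, which at 4865169 reads was the shallowest untreated library. Neat1 was highest there at a log2 level of 11.87, against 11.50 to 11.55 in the other untreated libraries. Snhg8 was highest there at 6.764, against 6.162 to 6.201 in the others. Pvt1 was lowest there at 6.67, against 7.195 to 7.287 in the others. Without that library the difference for chrysin against untreated was -3.57 for Neat1, 0.25 for Snhg8 and -0.41 for Pvt1, and for apigenin -0.46, 0.09 and -0.28. Snhg8 and Pvt1 passed the test in neither case (limma adjusted p of 0.118 to 0.743).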

How the results depend on the processing

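Among the 9 transcripts, 661 of 684 recomputed log2 differences kept their direction and side of the threshold, 13 lost a call, 10 gained one and 0 reversed. Leaving aside Neat1 and Dnm3os, whose chrysin values chose them, 3 to 5 of the other 7 were called for chrysin against untreated and 2 to 3 for apigenin against chrysin over the alternatives run, with Pvt1 gained in chrysin with array weights (-0.41, limma adjusted p = 0.0434). The array weights fit, the same for all comparisons, stopped before convergence. For apigenin against untreated 0 to 1 of these 7 were called. Counted over all 9 it was 1, but 3 with array weights, 2 with limma-voom on recovered reads, 2 with the replicate block and 0 at an adjusted p under 0.01. It was 3 with apigenin replicates 2 and 4 alone and 0 with replicates 1 and 3 alone, a description since the values set these pairs. When 1 library was left out it was 0 to 2 (0 without apigenin replicate 2, 2 without apigenin replicate 1). The calls gained were Dnm3os and, with array weights or apigenin replicates 2 and 4, also Neat1. The replicate block gave Dnm3os -0.84 (limma, adjusted p = 0.0194), but samples sharing a number did not deviate together (correlations of -0.10 to 0.10), so the numbers pair nothing.

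For other named genes 5667 of 5886 values kept direction and call, and 6 reversed. Under quantile normalization Vim had 0.23 for apigenin against untreated (-0.65 as reported) and 0.18 against chrysin (-0.66 as reported). For apigenin against chrysin, replicates 1 and 3 alone gave Tug1 0.33, H19 0.62 and 2900097C17Rik 0.37, and replicates 2 and 4 alone gave Meg3 -0.26. The cause was not tested. Of 456 list counts 15 moved by over 1.5 times. Among these, nonsense-mediated decay factors in chrysin came to 10 higher and 1 lower with array weights or the 8 samples of both groups alone, TOP mRNAs in apigenin to 5 lower with array weights, and other long noncoding RNAs in apigenin to 6 lower at an adjusted p under 0.01. Alternatives for lists and other genes were chosen after seeing the data. Depth limits Snhg8 and Pvt1 most, at 49 reads in the shallowest library.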
